A study of Mus musculus with 6 samples.

Results

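The genes described here encode 10 enzymes of glycolysis, *Hk1*, *Hk2*, *Gpi1*, *Pfkl*, *Pfkp*, *Aldoa*, *Pgk1*, *Eno1*, *Pkm* and *Ldha*. They were picked out by gene symbol, and each has 1 entry among the 36172 genes of the expression table. RNA sequencing was done on organoids, which are cultures grown in a gel from the epithelial cells of small intestinal tumors. The tumors came from C57BL/6 mice 15 to 20 weeks old with the Apc(D716) allele, in which *Apc* is truncated at codon 716, and the labels add LOH (loss of heterozygosity) for *Apc* in every group. The 3 groups differed in *Trp53*, the gene for the tumor suppressor p53. These groups, *Trp53* +/+, flox/flox and R270H/R270H, had 2 libraries each, and the 2 organoid cultures of a genotype came from separate mice. The flox allele carries the R270H substitution behind a stop cassette flanked by loxP sites and acts as a null allele until the cassette is removed. Removal was driven by tamoxifen acting on villin-CreER, a Cre recombinase expressed in the intestinal epithelium, so in the R270H/R270H organoids both alleles express the mutant protein. The flox/flox group is the state before that recombination. In its comparison with the R270H/R270H organoids, the mutant protein, tamoxifen and Cre activity therefore cannot be told apart. Whether the +/+ mice carried villin-CreER or received tamoxifen is not given in the sources used here. The comparison of R270H/R270H with +/+ may thus have the same limit.

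Glycolysis splits 1 glucose into pyruvate and yields ATP and NADH without using oxygen. Its early steps spend ATP to trap and phosphorylate the sugar (hexokinase, glucose phosphate isomerase, phosphofructokinase), aldolase cuts the sugar, and the late steps (phosphoglycerate kinase, enolase, pyruvate kinase) recover ATP. Lactate dehydrogenase then turns pyruvate into lactate and returns NADH to NAD+. Many tumors run this pathway at a high rate even with oxygen present, and HIF-1, Myc and p53 are known regulators of its genes. Which of these genes differ between organoids with wild-type, absent and mutant p53 is the question of the 3 comparisons below.

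Values are RPKM (reads per kilobase of transcript, scaled to the mapped reads of the library), in which no value lies below 1, and ± marks the s.d. over 2 libraries. *Trp53* itself was at 75.9 and 74.3 RPKM in +/+, 1.73 and 2.48 in flox/flox and 72.8 and 82.7 in R270H/R270H. Its level sets flox/flox apart, but a value per gene does not show the R270H substitution and does not tell R270H/R270H from +/+. Depth, estimated from the steps that single reads leave in short genes, was 44.2 to 47.2 M (mega) reads in 5 libraries. No usable estimate was had for flox/flox 1. The flox/flox libraries differed most from each other, with a median s.d. over genes of 0.247 on the log2 scale against 0.0463 in +/+ and 0.0621 in R270H/R270H. All 8 epithelial marker genes were above the floor of the table in every library. Muscle and neuron markers, 6 of 6, were at the floor throughout, and so were 5 of 6 immune markers, including *Ptprc*, and 2 of 4 endothelial markers, *Pecam1* and *Kdr*. The sixth immune marker, *Cd68* of macrophages, was at 10.2 and 9.87 RPKM in +/+, 2.06 and 11.1 in flox/flox and 2.22 and 2.41 in R270H/R270H (log2 fold change −1.74 for R270H/R270H against +/+, adjusted p=0.130). The summed level of the 8 mesenchymal markers was 8.0 to 8.6 RPKM in 5 libraries and 20.6 in flox/flox 2, where *Acta2* reached 11.5. The endothelial sum was also highest there, at 26.7 against 4.0 to 15.3 elsewhere, and 1 endothelial marker, *Cdh5*, was called lower than in +/+ (8.88 and 9.35 RPKM) in both flox/flox (1.00 and 3.30) and R270H/R270H (1.04 and 1.00). The part of these other cell markers in the enzyme differences was not tested. Since the libraries are bulk, fewer cells of a type and less RNA per cell cannot be told apart.

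The levels of the 10 enzymes ran from 8.88 RPKM (*Hk1*) to 1591 RPKM (*Ldha*) and fell into the same tiers in each genotype. *Ldha*, *Pgk1*, *Aldoa* and *Pkm* were the upper tier, *Eno1* and *Gpi1* the middle tier, and *Pfkl*, *Pfkp*, *Hk2* and *Hk1* the lower tier. The RPKM scale is per transcript length, so these levels can be set side by side. In +/+ the order was *Pgk1*, *Ldha*, *Aldoa*, *Pkm*, *Eno1*, *Gpi1*, *Pfkl*, *Pfkp*, *Hk2*, *Hk1*, and the only neighbours whose libraries overlapped were *Aldoa* and *Pkm*. In flox/flox *Ldha* stood above *Pgk1*, *Aldoa* and *Pkm* overlapped again, and *Pfkp*, *Hk2* and *Hk1* overlapped from one to the next. In R270H/R270H the order was *Ldha*, *Pgk1*, *Pkm*, *Aldoa*, *Eno1*, *Gpi1*, *Pfkl*, *Hk2*, *Pfkp*, *Hk1*, with overlap between *Pgk1* and *Pkm* alone.

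**Figure D1:**
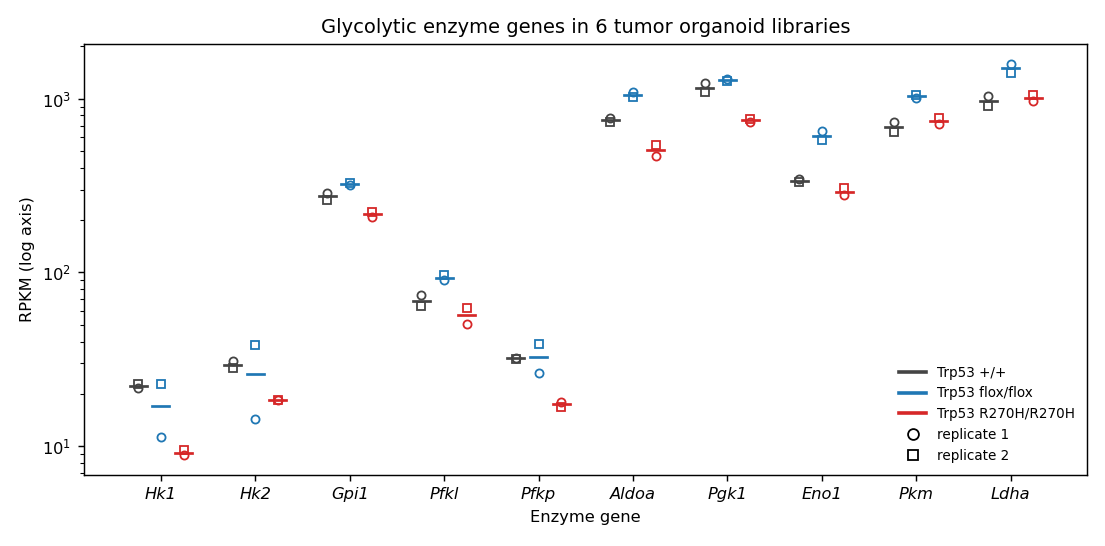
RPKM of the 10 enzyme genes (log axis) in the 6 libraries, with circles for replicate 1, squares for replicate 2 and bars for the mean of each *Trp53* genotype. *Ldha*, *Pgk1*, *Aldoa* and *Pkm* lie highest, and *Hk1*, *Hk2* and *Pfkp* lie lowest. Both flox/flox libraries lie above both R270H/R270H libraries for every gene except *Hk2*.

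In the fit of all 6 libraries, the comparison of mutant with absent p53, R270H/R270H against flox/flox, had the most calls. With 1 weight per genotype or only 2 genotypes fitted, R270H/R270H against +/+ had the most instead (7 and 6 enzymes). In the fit of all 6 libraries, 7 of the 10 enzymes were lower in R270H/R270H than in flox/flox at an adjusted p under 0.05. They were *Gpi1*, *Pfkl*, *Pfkp*, *Aldoa*, *Pgk1*, *Eno1* and *Ldha*, and 0 enzymes were higher. Of all 10042 genes tested, 11.0% were called lower and 13.6% higher. The log2 fold changes of the 10 enzymes were all negative, from −1.07 to −0.33 with a median of −0.73, while the median over all genes tested was 0.03. For 9 of the 10, all but *Hk2*, both R270H/R270H libraries were below both flox/flox libraries, which held for 31.2% of genes tested. At an unadjusted p under 0.05 there were 8, all lower, and 0 higher. Of the 10042 genes tested, 1918 were lower and 2351 higher at that unadjusted level. The calls depended on the fit. With only these 2 genotypes fitted there were 0, and with 1 weight per genotype 1 (*Eno1*). The replicate number as a block gave 2 (*Aldoa* and *Eno1*), and no filter on low values gave 3 (*Aldoa*, *Eno1* and *Pgk1*). In the same order, these fits called 3.76%, 5.32%, 11.5% and 2.09% of the genes tested in either direction. Leaving out either R270H/R270H library gave 0, when 1.65% and 2.67% of all genes were called in either direction, and leaving out flox/flox 1 or flox/flox 2 gave all 10 (*Hk2* higher in the latter), when 5318 and 7259 of the 10042 genes were called.

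Against +/+, the R270H/R270H organoids had 2 enzymes called lower, *Pfkp* and *Pgk1*, and 0 called higher. The shares of all genes tested were 6.36% lower and 5.86% higher. For 8 of the 10, all but *Pkm* and *Ldha*, both mutant libraries were below both +/+ libraries, against 37.6% of genes tested. The log2 fold changes ran from −1.19 for *Hk1* to 0.11 for *Pkm*, with a median of −0.465 beside 0.029 over all genes tested. At an unadjusted p under 0.05 there were 5 lower and 0 higher, and among the 10042 genes tested 1560 lower and 1649 higher. Adding a replicate block or dropping the filter left 0 calls, when 5.48% and 1.17% of the genes tested were called in either direction. No pseudocount left *Pgk1* alone and a filter above the floor left *Pfkp* alone. Upper-quartile scaling or no trend called *Aldoa* and *Pgk1* but not *Pfkp*. Over all fits, also those without 1 library, the log2 fold change was −0.88 to −0.80 for *Pfkp* and −0.70 to −0.53 for *Pgk1*. Fitting only these 2 genotypes gave 6 calls and 1 weight per genotype 7, all lower, while 57.0% and 59.6% of all genes were called in either direction and 25.7% and 27.8% were called lower.

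Between flox/flox and +/+, organoids without and with p53, only *Eno1* was called, and it was higher in flox/flox. No enzyme was called lower (0 also at an unadjusted p under 0.05, where 5 were higher). At that unadjusted level 1652 of the 10042 genes tested were higher and 1837 lower. Of all genes tested 4.38% were called higher and 6.90% lower. Both flox/flox libraries were above both +/+ libraries for 7 of the 10, all but *Hk1*, *Hk2* and *Pfkp*, and this held for 30.6% of genes tested. Fold changes on the log2 scale ranged from −0.45 for *Hk1* to 0.86 for *Eno1* around a median of 0.33, with −0.025 over all genes tested. The call of *Eno1* was lost with a replicate block, without a filter, with 1 weight per genotype and with only these 2 genotypes fitted. These fits left 0 enzymes called, and in either direction they called 2.79%, 0.202%, 1.49% and 0.468% of the genes tested. Over all fits, also those without 1 library, the log2 fold change of *Eno1* was 0.77 to 0.95. Leaving out flox/flox 1 gave 6 calls, all higher, and leaving out flox/flox 2 gave 7, of which 4 were higher and 3 lower (*Hk1*, *Hk2* and *Pfkp*), while 40.4% and 68.5% of all genes were called in either direction. The 3 comparisons share libraries in pairs and are not independent of each other.

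**Figure D2:**
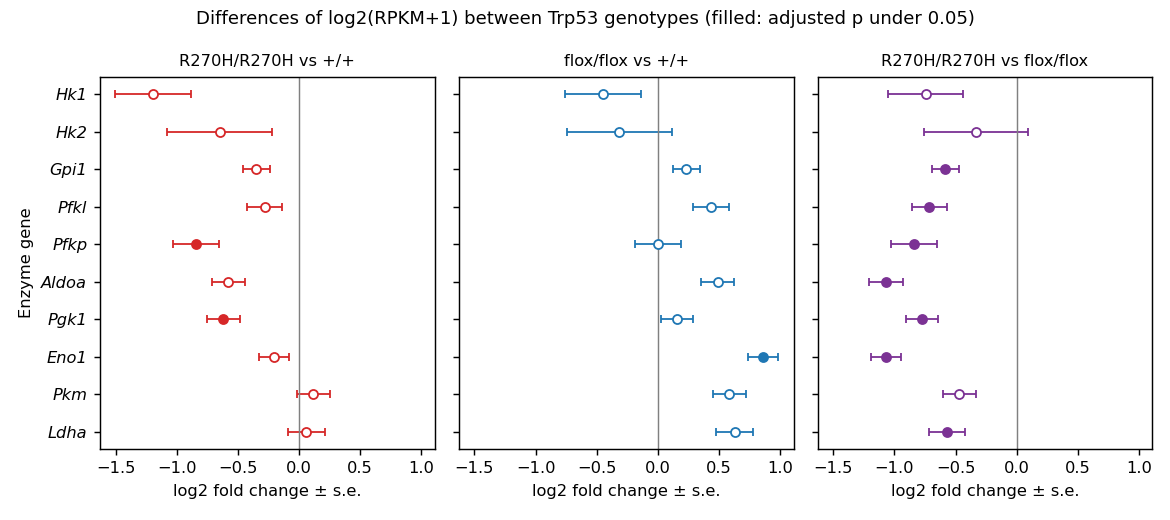
Difference of log2(RPKM+1) between *Trp53* genotypes (x axis, log2 fold change ± s.e. from the limma fit) for each enzyme gene (y axis), with filled points for an adjusted p under 0.05. There are 2 filled points in the R270H/R270H against +/+ panel, 1 in the flox/flox against +/+ panel and 7 in the R270H/R270H against flox/flox panel, where each point lies left of 0.

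Hexokinases phosphorylate glucose and so keep it in the cell, *Hk1* being the broadly expressed form and *Hk2* the form that insulin, hypoxia and growth signals induce. *Hk1* (chr10:62268855-62379920, mm10) was at 21.7 and 22.9 RPKM in +/+, 11.3 and 22.7 in flox/flox and 8.88 and 9.47 in R270H/R270H. Both mutant libraries were thus the lowest, while the flox/flox libraries lay apart, 1 near the mutant and 1 near the +/+ level. The mutant mean of 9.18±0.412 was 58.8% below the +/+ mean of 22.3±0.852, a log2 fold change of −1.19±0.31 (s.e.) that missed the threshold (adjusted p=0.066). Against flox/flox it was −0.75±0.31 (adjusted p=0.130), and flox/flox against +/+ was −0.45 (adjusted p=0.335). The hypoxia-responsive *Hk2* (chr6:82725025-82774454) showed the same split, with 30.8 and 28.2 RPKM in +/+, 14.3 and 38.0 in flox/flox and 18.4 in both R270H/R270H libraries. Its flox/flox libraries enclosed all the other values. None of its comparisons passed the test (log2 fold change −0.65 for R270H/R270H against +/+, adjusted p=0.357). Without flox/flox 1 the difference of *Hk2* between flox/flox and +/+ was 0.36 and no longer negative.

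The sum of both hexokinases was 52.5 and 51.05 RPKM in +/+, 25.6 and 60.7 in flox/flox and 27.3 and 27.9 in R270H/R270H, so the mutant organoids held 0.533 of the +/+ mean. *Hk1* made up 41.3% and 44.8% of this sum in +/+, 44.0% and 37.4% in flox/flox and 32.55% and 33.95% in R270H/R270H. The share was below every other library in both mutant libraries, at 33.25%±0.990 against 43.1%±2.49 in +/+. Shares are given without a test.

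Glucose-6-phosphate isomerase, encoded by *Gpi1* (chr7:34201327-34230336), turns glucose-6-phosphate into fructose-6-phosphate. It was at 288 and 263 RPKM in +/+, 318 and 329 in flox/flox and 208 and 224 in R270H/R270H, and no libraries of different genotypes overlapped. The mutant mean (216±11.3) was 33.3% below the flox/flox mean (323±7.79), with a log2 fold change of −0.58±0.11 (adjusted p=0.024). The differences from +/+ (275±17.5) were −0.35 for R270H/R270H (adjusted p=0.103) and 0.23 for flox/flox (adjusted p=0.200), and neither passed.

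Phosphofructokinase commits the sugar to glycolysis and is the main point of control of the pathway, with *Pfkl* the liver-type and *Pfkp* the platelet-type subunit. *Pfkl* (chr10:77986947-78009807) was at 73.9 and 63.9 RPKM in +/+, 90.3 and 96.1 in flox/flox and 50.8 and 62.5 in R270H/R270H. The flox/flox libraries were the highest, and the mutant mean of 56.7±8.28 was 39.2% below theirs of 93.2±4.09 (log2 fold change −0.71±0.14, adjusted p=0.027). Neither group passed against +/+ (adjusted p=0.250 for R270H/R270H and 0.107 for flox/flox).

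*Pfkp* (chr13:6579874-6649060) was at 32.2 and 31.9 RPKM in +/+, 26.5 and 38.6 in flox/flox and 18.0 and 16.9 in R270H/R270H. Unlike *Pfkl*, its flox/flox libraries enclosed the +/+ level (log2 fold change −0.00, adjusted p=0.998), whereas both mutant libraries were lower than the 4 others. The mutant mean of 17.5±0.768 was 45.5% below +/+ (log2 fold change −0.84±0.19, adjusted p=0.048) and 46.4% below flox/flox (−0.84±0.19, adjusted p=0.033). Other genes of chromosome 13 moved with it. The median log2 fold change of the 357 tested genes of that chromosome was −0.332 for R270H/R270H against +/+, the lowest of chromosomes 1 to 19 and X, where the next was −0.034 on chromosome 7. By library the chromosome 13 median stood at −0.29 and −0.377 in R270H/R270H and at −0.088 and −0.072 in flox/flox, relative to +/+. The part of this shift in the *Pfkp* difference was not tested. Leaving out flox/flox 1 turned the flox/flox against +/+ difference of *Pfkp* to 0.26.

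Both phosphofructokinase subunits together were at 106 and 95.8 RPKM in +/+, 117 and 135 in flox/flox and 68.8 and 79.4 in R270H/R270H. *Pfkl* made up 69.7% and 66.7% of this sum in +/+, 77.3% and 71.3% in flox/flox and 73.8% and 78.7% in R270H/R270H. The 2 +/+ libraries had the lowest shares, and the flox/flox and mutant libraries overlapped. The muscle-type subunit gene *Pfkm*, not among the 10, was at 5.82 to 9.31 RPKM.

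Aldolase A, encoded by *Aldoa* (chr7:126795234-126800994), splits fructose-1,6-bisphosphate into the pair of three-carbon sugars that the lower pathway uses. It was at 777 and 729 RPKM in +/+, 1087 and 1026 in flox/flox and 466 and 543 in R270H/R270H. The genotypes did not overlap, and flox/flox was highest and R270H/R270H lowest. The mutant mean of 505±54.2 was 2.09-fold lower than the flox/flox mean of 1056±42.8 (log2 fold change −1.07±0.14, adjusted p=0.010). Against the +/+ mean of 753±33.6 the mutant was 33.0% lower (−0.58, adjusted p=0.054) and flox/flox 40.3% higher (0.49, adjusted p=0.078), both short of the threshold.

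Phosphoglycerate kinase makes the first ATP that glycolysis returns. Its gene *Pgk1* (chrX:106187100-106203699) was at 1222 and 1085 RPKM in +/+, 1304 and 1266 in flox/flox and 734 and 766 in R270H/R270H. The mutant libraries stood well below the rest, and the +/+ and flox/flox libraries were close. *Pgk1* was 35.0% lower in the mutant (750.0±22.2) than in +/+ (1154±97.2; log2 fold change −0.62±0.13, adjusted p=0.044). It was 41.65% lower than in flox/flox (1285±26.6; −0.78±0.13, adjusted p=0.019). The difference of flox/flox from +/+, 0.16, did not pass (adjusted p=0.419).

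*Pfkp* and *Pgk1* were the enzymes called in the mutant against both other genotypes in the reported fit, so the sequence before their transcription starts is shown. Both have 1 start among the RefSeq promoter windows, and the 250 bases before it are given 5′ to 3′ on the strand of the gene (RefSeq, GRCm38.p6). Capitals mark the core of the hypoxia response element, to which HIF-1 binds, searched as ACGTG or GCGTG on both strands, so that CACGT and CACGC are matches read from the other strand. The *Pfkp* stretch is chr13:6648772-6649021 on the minus strand and the *Pgk1* stretch is chrX:106186850-106187099 on the plus strand. The *Pfkp* stretch lies inside the gene span given above, since the RefSeq span of the gene reaches beyond this start.
Pfkp: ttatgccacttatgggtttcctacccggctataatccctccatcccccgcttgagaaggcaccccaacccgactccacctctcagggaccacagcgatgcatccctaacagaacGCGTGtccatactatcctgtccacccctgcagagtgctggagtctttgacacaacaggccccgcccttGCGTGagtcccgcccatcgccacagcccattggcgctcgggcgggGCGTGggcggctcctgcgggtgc
Pgk1: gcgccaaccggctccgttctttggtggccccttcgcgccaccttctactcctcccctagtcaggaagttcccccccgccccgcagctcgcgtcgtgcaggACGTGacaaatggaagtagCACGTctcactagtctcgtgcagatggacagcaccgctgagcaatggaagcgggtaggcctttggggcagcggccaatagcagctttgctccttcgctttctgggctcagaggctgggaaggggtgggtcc

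*Pfkp* held 3 matches, all GCGTG, at 136, 68 and 23 bases before the start, and *Pgk1* held 2, both ACGTG, at 150 and 131 bases. *Hk2*, also with 1 start, had 2 ACGTG matches at 226 and 52 bases, *Pfkl* had 1 at 99 bases, and in *Gpi1* these letters were not in the window. The 10 enzymes have 17 RefSeq windows, each from 250 bases before to 50 bases after a start, and 13 held the core. By gene, 9 of the 10 had a window with it. Since 5 of the 10 have several windows, this count by gene cannot be set against the window shares that follow. The core is common, being in 43.8% of all 32851 windows and in 63.7% of the 10297 windows of tested genes. The E-box CACGTG, which Myc and its partner Max bind and which contains ACGTG, was in 1 of the 17 windows, against 10.5% of windows of tested genes and 7.15% of all. A match is a string of letters and does not show binding.

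Enolase, the product of *Eno1* (chr4:150236708-150248879), makes phosphoenolpyruvate. *Eno1* was at 343 and 329 RPKM in +/+, 651 and 574 in flox/flox and 279 and 305 in R270H/R270H. It had the widest gap between flox/flox and +/+ of the 10, with no overlap, and its mutant level was close to +/+. The flox/flox mean of 612.5±54.2 was 1.82-fold higher than the +/+ mean of 336±9.45 (log2 fold change 0.86±0.12, adjusted p=0.023). The mutant mean of 292±18.4 was 2.10-fold lower than the flox/flox mean (−1.07±0.12, adjusted p=0.0082), and its difference from +/+ of −0.20 did not pass (adjusted p=0.320). *Eno1b*, a near copy that the table lists as *Gm5506*, was at the floor in every library. The near copies *Aldoart1*, *Aldoart2*, *Pgk1-rs7*, *Pgk2* and *Ldhc* were at the floor as well. How reads that fit several copies were counted is not given in the sources used here.

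Pyruvate kinase makes the second ATP and pyruvate, and its gene *Pkm* (chr9:59656576-59679372) yields the M1 and M2 forms, which a gene-level value does not separate. *Pkm* was at 734 and 641 RPKM in +/+, 1012 and 1046 in flox/flox and 715 and 772 in R270H/R270H. The +/+ and mutant libraries overlapped below the flox/flox level. The flox/flox mean (1029±24.4) was 49.7% above +/+ (688±65.4), with a log2 fold change of 0.58±0.13 that narrowly missed the threshold (adjusted p=0.053). R270H/R270H (743±40.8) against flox/flox was −0.47 (adjusted p=0.058), and against +/+ it was 0.11 (adjusted p=0.607).

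Lactate dehydrogenase A, encoded by *Ldha* (chr7:46842274-46855627), reduces pyruvate to lactate. Its values were 1033 and 907 RPKM in +/+, 1591 and 1407 in flox/flox and 969 and 1051 in R270H/R270H, so that, as for *Pkm*, the +/+ and mutant libraries overlapped and both flox/flox libraries lay above them. The mutant mean of 1010.0±57.7 was 32.6% below the flox/flox mean of 1499±130 (log2 fold change −0.57±0.15, adjusted p=0.048). This call was lost with a pseudocount of 0.1, with none and with the filter above the floor. Flox/flox was 1.55-fold the +/+ mean of 970±89.4 but did not pass (0.63±0.15, adjusted p=0.057), and mutant against +/+ was 0.06 (adjusted p=0.819).

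Set along the pathway, the enzymes thus did not keep constant proportions. Ratios within a library were computed after the values had been seen and are given without a test. *Pgk1* exceeded *Ldha* in +/+ (ratio 1.18 and 1.20) and was below it in flox/flox (0.820 and 0.900) and in R270H/R270H (0.757 and 0.729). *Aldoa* over *Pkm* was 1.06 and 1.14 in +/+, 1.07 and 0.981 in flox/flox and 0.653 and 0.703 in R270H/R270H, so this ratio set the mutant libraries apart from the rest. *Eno1* over *Gpi1* was 1.19 and 1.25 in +/+ and 1.34 and 1.36 in the mutant but 2.05 and 1.75 in flox/flox, and here flox/flox stood apart.

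The summed RPKM of the 10 enzymes was 4555 and 4101 in +/+, 6104 and 5845 in flox/flox and 3467 and 3768 in R270H/R270H. The means of 4328±321, 5975±184 and 3617±213 put flox/flox 1.38-fold above +/+ and the mutant at 0.836 of +/+ and 0.605 of flox/flox. The sum is carried by *Ldha*, *Pgk1*, *Aldoa* and *Pkm*. As a share of the RPKM of all genes it was 1.105% and 1.011% in +/+, 1.26% and 1.41% in flox/flox and 0.918% and 0.966% in R270H/R270H, again without overlap.

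The sum of the epithelial markers had the same order of genotypes, carried by the keratin genes *Krt8*, *Krt18* and *Krt19*. The summed level of the 8 marker genes was 2734 and 2697 RPKM in +/+, 4270 and 4022 in flox/flox and 2228 and 2372 in R270H/R270H. Of the 8, 3 (*Krt8*, *Krt18* and *Krt19*) were called lower in R270H/R270H than in flox/flox, 2 (*Krt8* and *Krt19*) higher in flox/flox than in +/+, and 1 (*Krt19*) lower in R270H/R270H than in +/+. The means of *Cdh1*, *Vil1* and *Cdx2* were also highest in flox/flox and lowest in R270H/R270H, without a call in any comparison. In +/+, flox/flox and R270H/R270H they were 216, 239 and 205 RPKM for *Cdh1* and 112, 128 and 99.1 for *Vil1*. For *Cdx2* they were 48.9, 78.55 and 45.2. *Epcam* had another order, at a mean of 293 RPKM in +/+, 352 in flox/flox and 340.2 in R270H/R270H, and so did *Krt20*, at 3.54, 2.63 and 4.61. The median fold changes of highly expressed genes also leaned the same way. There were 247 genes other than the enzymes with a mean of at least 200 RPKM, a limit chosen after the values were seen. Of these, 18.2% were called lower in R270H/R270H than in flox/flox, against 11.0% of all genes tested. Their median log2 fold change was −0.399. For flox/flox against +/+ their median was 0.281, with 4.86% called higher against 4.38% of all genes tested. For R270H/R270H against +/+ it was −0.174, with 6.07% called lower against 6.36% of all genes tested. The part of either pattern in the enzyme differences was not tested.

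**Figure D3:**
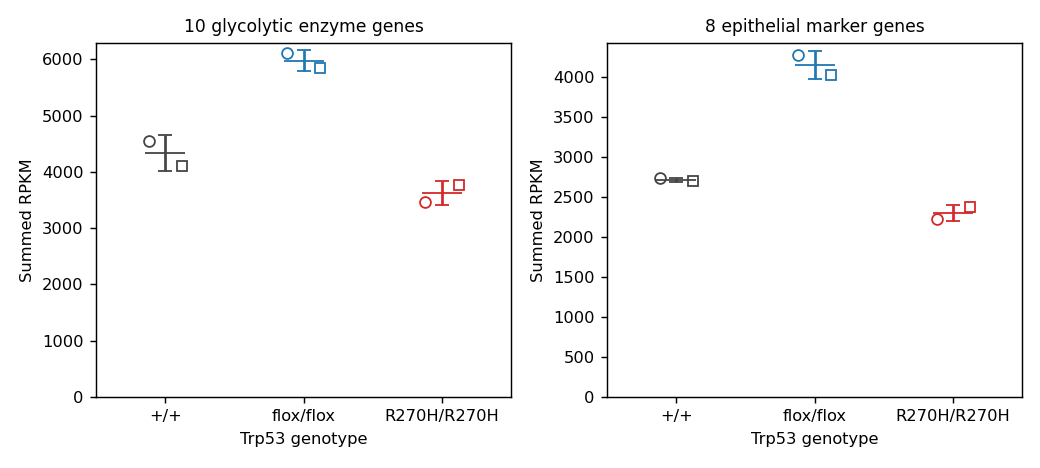
Summed RPKM (y axes, from 0) of the 10 glycolytic enzyme genes (left) and of 8 epithelial marker genes (right) by *Trp53* genotype, with circles for replicate 1, squares for replicate 2 and mean ± s.d. bars. In both panels flox/flox is highest and R270H/R270H lowest, with enzyme means of 5975 and 3617 RPKM.

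The enzymes of the same pathway outside the 10 did not all follow them. Triose-phosphate isomerase (*Tpi1*), which interconverts the aldolase products, was at 595 and 511 RPKM in +/+, 1011 and 892 in flox/flox and 663 and 725 in R270H/R270H. It was higher in flox/flox than in +/+ (log2 fold change 0.78, adjusted p=0.036), and its mutant libraries lay above the +/+ libraries, the opposite of *Aldoa*, although that difference did not pass (0.33, adjusted p=0.196). Phosphoglycerate mutase (*Pgam1*) had the same order, with 289.9 and 274 in +/+, 512 and 449 in flox/flox and 346 and 378 in R270H/R270H. It passed for flox/flox against +/+ (0.76, adjusted p=0.028). *Gapdh*, which follows *Tpi1* in the pathway, was at 2258 and 2061, 3166 and 3081, and 1595 and 1744 RPKM in the same order of groups, the order shown by *Aldoa*. It was lower in R270H/R270H than in flox/flox (−0.90, adjusted p=0.017).

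The ratio of *Aldoa* to *Tpi1* was 1.305 and 1.428 in +/+, 1.075 and 1.15 in flox/flox and 0.703 and 0.749 in R270H/R270H. That of *Pgk1* to *Pgam1* was 4.22 and 3.96, 2.55 and 2.82, and 2.12 and 2.03. Both ratios were highest in +/+, intermediate in flox/flox and lowest in R270H/R270H, with no overlap between genotypes.

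**Figure D4:**
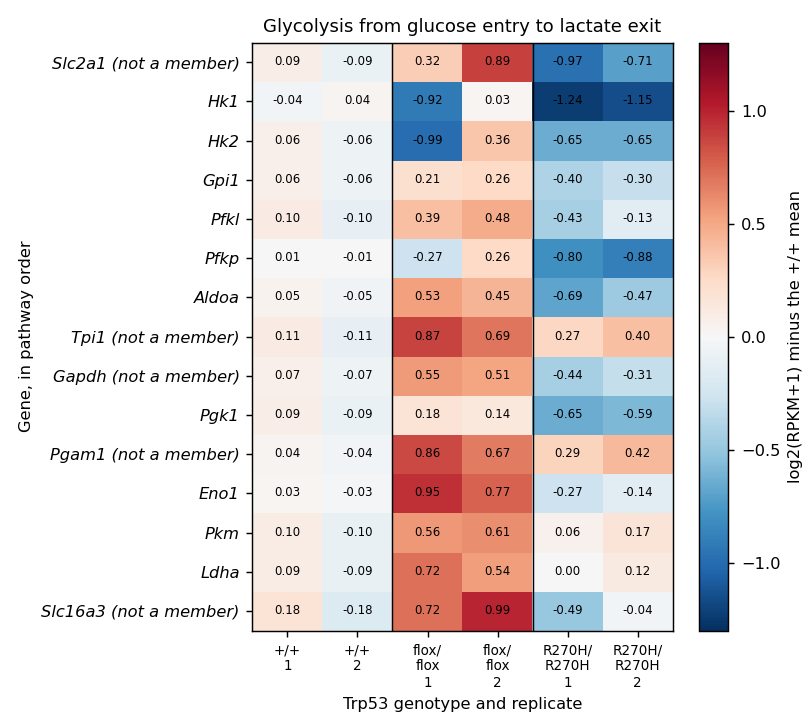
Heat map of log2(RPKM+1) minus the +/+ mean for 15 genes in pathway order (y axis) in each of the 6 libraries (x axis). R270H/R270H columns are negative from *Slc2a1* to *Aldoa* and at *Gapdh*, *Pgk1*, *Eno1* and *Slc16a3*. They are positive at *Tpi1* and *Pgam1* and, less so, at *Pkm* and *Ldha*. The flox/flox columns disagree with each other in sign at *Hk1*, *Hk2* and *Pfkp*.

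Of 20 other glycolytic enzyme genes listed, 12 passed the filter on low values. Among them 2 were called higher and 1 lower in R270H/R270H than in flox/flox, 1 higher and 2 lower than in +/+, and 2 higher and 3 lower in flox/flox than in +/+. Their median log2 fold changes were 0.261, 0.056 and −0.456. *Ldhb*, the lactate dehydrogenase subunit of heart-type tissues, was at 1.83 and 2.05 RPKM in +/+, 1.00 and 1.28 in flox/flox and 6.75 and 5.94 in R270H/R270H, and passed against +/+ (1.32, adjusted p=0.011) and against flox/flox (1.78, adjusted p=0.0042). Even so, *Ldha* was at 969 RPKM or more in the same mutant libraries. *Aldoc*, the brain form of aldolase, was 73.8 and 76.6 RPKM in +/+ and lower in flox/flox (52.7 and 50.3; −0.54, adjusted p=0.030) and R270H/R270H (56.3 and 56.7; −0.41, adjusted p=0.0497). Liver-type pyruvate kinase, *Pklr*, was lower in flox/flox than in +/+ (−1.07, adjusted p=0.040), as was *Ldhd*, a D-lactate dehydrogenase (−1.75, adjusted p=0.022), which was also lower in the mutant (−1.70, adjusted p=0.018).

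Glucose enters these cells through transporters and lactate leaves by others. *Slc2a1*, the glucose transporter GLUT1, was at 66.25 and 58.4 RPKM in +/+, 78.05 and 116 in flox/flox and 31.3 and 37.6 in R270H/R270H. It was lower in the mutant than in flox/flox (−1.44, adjusted p=0.015) but missed the threshold against +/+ (−0.84, adjusted p=0.067). The lactate exporter *Slc16a3* was lower in the mutant (35.6 and 49.2 RPKM) than in flox/flox (83.6 and 101; −1.12, adjusted p=0.025). *Bsg*, which carries lactate transporters to the membrane, was lower in R270H/R270H than in +/+ (−1.15, adjusted p=0.012) and than in flox/flox (−0.56, adjusted p=0.041). In contrast *Slc5a1*, the sodium-coupled glucose transporter of enterocytes, was higher in the mutant than in flox/flox (1.00, adjusted p=0.025). Of 10 transport genes 5 passed the filter, and limma called 0 between flox/flox and +/+ (2 higher and 2 lower at an unadjusted p under 0.05).

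Among the 8 measured genes that set the pathway's side branches and intermediates, *Bpgm*, which makes 2,3-bisphosphoglycerate, was higher in R270H/R270H (23.8 and 20.1 RPKM) than in +/+ (11.5 and 12.6; 0.81, adjusted p=0.024) and flox/flox (9.92 and 11.2; 0.99, adjusted p=0.011). *Pgm2* was lower in the mutant than in both (−0.61, adjusted p=0.027, and −0.54, adjusted p=0.024), and *Pgm1* (−0.54, adjusted p=0.025) and *Pgp* (−0.64, adjusted p=0.024) were lower than in flox/flox. The p53 target *Tigar*, listed as *9630033F20Rik*, whose product lowers fructose-2,6-bisphosphate, was at 9.61 and 9.49 RPKM in +/+, 9.915 and 8.585 in flox/flox and 8.08 and 7.43 in R270H/R270H. No comparison of it passed (adjusted p=0.192, 0.804 and 0.203 for R270H/R270H against +/+, flox/flox against +/+ and R270H/R270H against flox/flox).

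The genes outside the pathway lists whose profile over the 6 libraries was most like the mean standardized profile of the 10 enzymes were *Zbed3* (Pearson r=0.997), *Chpf* (0.997), *Junb* (0.992), *BC021891* (0.992) and *Slc37a1* (0.989). With 6 points that share 3 genotypes, these values are a description only. *Slc37a1*, an exchanger of glucose-6-phosphate, was at 11.3 and 10.8 RPKM in +/+, 12.3 and 12.5 in flox/flox and 9.72 and 9.96 in R270H/R270H.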

How the data were processed

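The authors prepared poly(A) RNA libraries from tumor organoids, mapped the reads to mm10 and deposited RPKM values per gene computed with StrandNGS. Its version, gene annotation and read filters are not given in the sources used here. The smallest deposited RPKM value is 1, held by most genes, which reads as a floor set before deposit, and read counts were not used. The 10 enzymes, the pathway lists and the tests were chosen with earlier results of these data known. Genes reaching 4 RPKM in any library, 10042 of 36172, were tested on log2(RPKM+1), which understates changes of low genes, with limma 3.58.1 in R 4.3.3 (lmFit, then eBayes with a trend, two-sided) on all 6 libraries with genotype as the only term. The 3 genotypes share 1 estimate of the spread per gene in this fit, although the flox/flox libraries differed most (median s.d. 0.247 against 0.0463 and 0.0621). Its s.e. and p-values can thus be too small for comparisons with flox/flox and too large for R270H/R270H against +/+. P-values were adjusted by Benjamini-Hochberg over all genes tested, and calls were made at 0.05. The filter of 4 RPKM follows the study. The test was tried on simulated data for R270H/R270H against +/+ only, with the same spread for every gene within a genotype. Its outcome is not reported here, and it does not cover the comparisons with flox/flox. Named genes were the 10 enzymes, *Trp53*, every listed pathway gene called in a comparison, *Tigar*, *Slc2a1*, *Hif1a*, *Gapdh*, *Tpi1*, *Pgam1* and *Eno1b*, and the 5 most alike genes, and some of the listed genes are not reported here. *Pfkm*, *Kdm3a* and the markers named in the text are outside this rule and were chosen after their values were seen. Coordinates and promoters are from RefSeq (GRCm38.p6), matched by gene identifier, and lengths for the depth estimate are those listed with these coordinates. Alternatives were other pseudocounts, filters and scalings, 1 weight per genotype, no trend, a fit of 2 genotypes, a replicate block and leaving out each library. Python 3.11.15 with pandas 2.3.3, numpy 2.4.6 and matplotlib 3.10.9 was used for sums and figures.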

Additional observations from a re-analysis of the deposited data

How the results depend on the processing

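Counts of calls are for R270H/R270H against +/+, flox/flox against +/+ and R270H/R270H against flox/flox, where the reported fit gave 2, 1 and 7 enzymes and 1227, 1133 and 2469 genes. The replicate number was tried as a block and gave 0, 0 and 2 enzymes and 550, 280 and 1156 genes. Same-numbered libraries come from different mice, and their deviations from the genotype means correlated at −0.291 (+/+ and R270H/R270H), 0.117 (+/+ and flox/flox) and −0.196 (R270H/R270H and flox/flox), so the numbers do not pair them. Exchanging the R270H/R270H numbers in that block, an alternative added after the data were seen, gave 0, 1 and 7 enzymes. No filter gave 0, 0 and 3 enzymes and 424, 73 and 756 genes. One weight per genotype gave 7, 0 and 1 enzymes and 5987, 150 and 534 genes. Fitting only the 2 genotypes compared gave 6, 0 and 0 enzymes and 5721, 47 and 378 genes. For R270H/R270H against +/+, no pseudocount gave 1 enzyme, and a filter above the floor 1 enzyme and 1907 genes. For flox/flox against +/+, no trend gave 3 enzymes. Leaving out 1 library in turn gave 0 to 0, 0 to 7 and 0 to 10 enzymes and 0 to 113, 8 to 6875 and 166 to 7259 genes, the highest for both comparisons with flox/flox being without a flox/flox library. The library that then stands alone is assumed to vary like the other groups. Of the log2 fold changes of named and listed genes, 22 changed sign under an alternative, 3 of them past the threshold in a fit. These 3 arose on leaving out a library: *Hk2* and *Pfkp* in flox/flox against +/+ gave 0.36 and 0.26 without flox/flox 1 and −0.99 and −0.27 without flox/flox 2, and *Hk2* in R270H/R270H against flox/flox gave −1.0075 without flox/flox 1 and 0.34 without flox/flox 2. The other 19 passed in neither fit. On leaving out 1 library the ranges were, for R270H/R270H against +/+, −0.034 to 0.15 for *Ldha*, −0.088 to 0.11 for *Ankrd37* and −0.045 to 0.14 for *Trp53*. For flox/flox against +/+ they were −0.92 to 0.025 for *Hk1*, −0.063 to 0.069 for *H6pd*, −0.012 to 0.16 for *Pgm1*, −0.14 to 0.049 for *Tigar*, −0.24 to 0.24 for *Egln3* and −0.20 to 0.009 for *Mpc1*. For R270H/R270H against flox/flox they were −0.58 to 0.064 for *Sesn2* and −0.15 to 0.24 for *Ldhd*. Median-of-ratios scaling gave −0.0073 for *Ankrd37* in R270H/R270H against +/+ and 0.014 for both *Egln3* and *Pfkp* in flox/flox against +/+, where upper-quartile scaling gave −0.042 for *H6pd*. Of the rest, 1920 values kept direction and side of the threshold, 114 passed newly and 419 no longer passed. The sums of the 10 enzymes moved by less than 1 s.d. under both scalings. Precision is limited by 2 libraries a genotype, the floor of 1 RPKM and values that hold no read counts.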

Other observations

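Branches next to glycolysis were described from lists that were also chosen with earlier results of these data known. The pentose phosphate pathway draws on glucose-6-phosphate to make NADPH and ribose. Of its 8 genes, 4 were called lower in R270H/R270H than in flox/flox and 2 lower than in +/+. The shares of all genes tested were 11.0% and 6.36%. The limma fit called 0 of the 8 higher in either comparison, also at an unadjusted p under 0.05. The transketolase gene *Tkt* was at 265 and 268 RPKM in +/+, 270.4 and 301 in flox/flox and 134 and 164 in R270H/R270H. Its log2 fold change was −0.84 against +/+ (adjusted p=0.025) and −0.94 against flox/flox (adjusted p=0.014). *Pgls* was lower in the same comparisons (−0.78, adjusted p=0.042, and −1.05, adjusted p=0.016). *G6pdx*, the entry enzyme, passed against flox/flox (−0.58, adjusted p=0.035), as did *H6pd* (−0.43, adjusted p=0.042). In gluconeogenesis, *Pck2*, the mitochondrial PEP carboxykinase, was at 53.2 and 59.7 RPKM in +/+, 27.8 and 32.4 in flox/flox and 15.6 and 17.4 in R270H/R270H, and all 3 comparisons passed (log2 fold change −1.72 for R270H/R270H against +/+, adjusted p=0.0038). *G6pc3* was lower in R270H/R270H than in +/+ (−0.59, adjusted p=0.040).

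Among the 12 genes that decide the fate of pyruvate, the largest differences were in *Pdk4*, a kinase that switches off pyruvate dehydrogenase. It was at 9.77 and 10.2 RPKM in +/+, 1.00 and 2.32 in flox/flox and 42.3 and 35.2 in R270H/R270H, with 1 flox/flox library at the floor, and all 3 comparisons passed. *Pdk2* was lower in flox/flox (6.87 and 5.46 RPKM) than in +/+ (13.7 and 13.6) and R270H/R270H (10.8 and 10.4), while *Pdk3* was higher in flox/flox (24.8 and 23.0) than in +/+ (13.6 and 13.1) and R270H/R270H (16.9 and 17.1). The phosphatase genes *Pdp1* and *Pdp2* were higher in R270H/R270H than in flox/flox (0.54, adjusted p=0.044, and 1.23, adjusted p=0.023). *Mpc1*, a subunit of the mitochondrial pyruvate carrier, was lower in R270H/R270H than in both (−0.54, adjusted p=0.042, against +/+ and −0.45, adjusted p=0.045, against flox/flox). Of 15 other genes of the hypoxia response, 6 were called lower in R270H/R270H than in flox/flox and 3 lower than in +/+. In flox/flox 3 were called higher than in +/+. The shares of all genes tested were 11.0%, 6.36% and 4.38%. *Kdm3a* went the other way, at 32.5 and 32.4 RPKM in R270H/R270H, 23.5 and 20.8 in +/+ and 18.4 and 28.4 in flox/flox. Neither of these differences passed in the limma fit (adjusted p=0.158 against +/+ and 0.142 against flox/flox). *Ddit4* was at 51.6 and 42.3 RPKM in +/+, 74.2 and 118 in flox/flox and 19.6 and 23.0 in R270H/R270H, and *Egln3* at 88.8 and 87.6, 74.5 and 104, and 43.0 and 39.3. *Ddit4*, *Egln3* and *Mxi1* were the genes lower in R270H/R270H than in +/+, and *Ankrd37*, *Higd1a* and *Bnip3l* those higher in flox/flox. *Ndrg1* and *P4ha1* were lower in R270H/R270H than in flox/flox (−1.23, adjusted p=0.021, and −0.58, adjusted p=0.025). *Hif1a*, the oxygen-regulated subunit of HIF-1, was at 35.6 and 39.9 RPKM in +/+, 27.2 and 30.3 in flox/flox and 46.8 and 41.0 in R270H/R270H, higher in the mutant than in flox/flox (0.59, adjusted p=0.029). *Myc* was at 97.3 and 104, 80.2 and 77.7, and 41.4 and 46.5 RPKM, lower in the mutant than in +/+ (−1.18, adjusted p=0.0055) and flox/flox (−0.83, adjusted p=0.010). *Mlxipl*, which encodes the glucose-sensing factor ChREBP, was higher in the mutant than in both (0.85, adjusted p=0.024, and 1.22, adjusted p=0.0077). Of the p53-linked genes of glucose metabolism, *Sesn2* was lower in flox/flox and R270H/R270H than in +/+ (−1.52, adjusted p=0.026, and −1.77, adjusted p=0.015), *Gls2* was higher in flox/flox than in +/+ (0.74, adjusted p=0.046), and *Prkab1* was lower in R270H/R270H than in flox/flox (−0.88, adjusted p=0.028).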
